A study of Homo sapiens with 4 samples.

Results

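Kinesins are motor proteins that use ATP to move along microtubules or take them apart, and the CEP genes encode centrosomal proteins that build centrioles, anchor microtubules and template cilia. The genes were picked by name alone, as rows whose symbol is KIF or KIFC plus a number, or CEP plus a number. This gave 54 genes (29 kinesin and 25 CEP genes) of 12792 with any m6A peak. They held 123 of 24626 peaks with shALKBH5 and 132 of 22448 peaks with shNC. RefSeq has 78 symbols that fit the rule, so 24 of them had no peak under their own name.

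The peaks come from m6A-seq of RPMI-8226, an established human multiple myeloma line. An antibody pulls down poly(A) RNA that carries N6-methyladenosine (m6A, a common internal mark of mRNA), and the immunoprecipitate (IP) and the starting RNA (input) are both sequenced. Cells had been transduced with lentivirus for a short hairpin RNA against ALKBH5, an enzyme that takes m6A off RNA, or for the hairpin named shNC. Each condition has 1 IP and 1 input library, so differences are between library pairs, without replicates and without any test between conditions. Read counts are not part of the lists, so depth and RNA levels are unknown, and an unlisted peak cannot be told apart from an RNA too scarce to give one. ALKBH5 itself had 3 peaks in each list, which does not measure the knockdown. Of 12 plasma cell markers 7 had peaks, all 7 under both hairpins, while peaks were listed for 1 of 5 T and NK cell, 2 of 5 myeloid and 2 of 5 stromal markers.

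In mRNA, m6A is known to gather around stop codons and in long internal exons, and antibodies against it also bind a related methylated base next to the cap. A nuclear writer complex places the mark, and ALKBH5 or FTO can take it off. Messages of mitotic kinesins are known to peak late in the cell cycle. Below, the enrichment of a peak is the authors' ratio of IP over input inside it, written as a fold, and log10 p is the authors' p-value on a log10 scale, stronger when more negative. Both are values from the authors' deposited table of each condition and describe peaks only inside their own list. Coordinates are on hg38.

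Only a handful of these peaks lay at gene starts, in CEP350, CEP63, CEP78 and KIF5B. The shNC peak of CEP350 and the shALKBH5 peak of KIF5B cover the RefSeq start itself, so the bases around those starts are shown from RefSeq (GRCh38.p14). Each runs 5′ to 3′ on the gene strand, with 10 bases before the start and the first transcribed base in capitals. They lie at chr1:179954800-179954829 (plus strand) and chr10:32056406-32056435 (minus strand).
CEP350: cctccgtgtcAgttgttgggctgtaatggc
KIF5B: gcaccgccctGtcgcccaacggcggcctca
CEP350 begins with A, as do 20 of the 45 promoters found for these genes and 44.4% of 35116 RefSeq promoters, and KIF5B begins with G. The core of the m6A consensus, GGAC, occurs 0 times in the first 50 bases of either gene on the gene strand. It occurs there in 9 of the 45 promoters, against 18.9% of all, and on either strand in 42.2%, against 33.5%. GGACT, which contains GGAC, is found on the gene strand in 2 of the 45 and 1721 of the 35116, and on either strand in 6.67%, against 9.62%.

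Most kinesin and CEP genes carried peaks under both hairpins. Of the 54 genes, 47 were in both lists (87.0%, exact 95% interval 75.1 to 94.6%; 83.0% of all genes with a peak were). KIF5B, the heavy chain of conventional kinesin, was the 1 gene found with shALKBH5 alone (1.85%, against 11.5% of all genes). In contrast, 6 genes were found with shNC alone (11.1%, 4.19 to 22.6%, against 5.50% of all genes), namely CEP44, CEP55, KIF3A, KIF4B, KIF19 and KIF21A. By number of peaks, 10 genes had more with shALKBH5 (18.5%, 9.25 to 31.4%, against 30.5% of all genes), 19 had more with shNC (35.2%, 22.7 to 49.4%, against 17.2%) and 25 had equal numbers. With the weakest peaks of the longer shALKBH5 list removed so that both lists were equally long, 1 of these genes was left with shALKBH5 alone and 7 with shNC alone, against 7.95% and 7.65% of all genes.

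**Figure D1:**
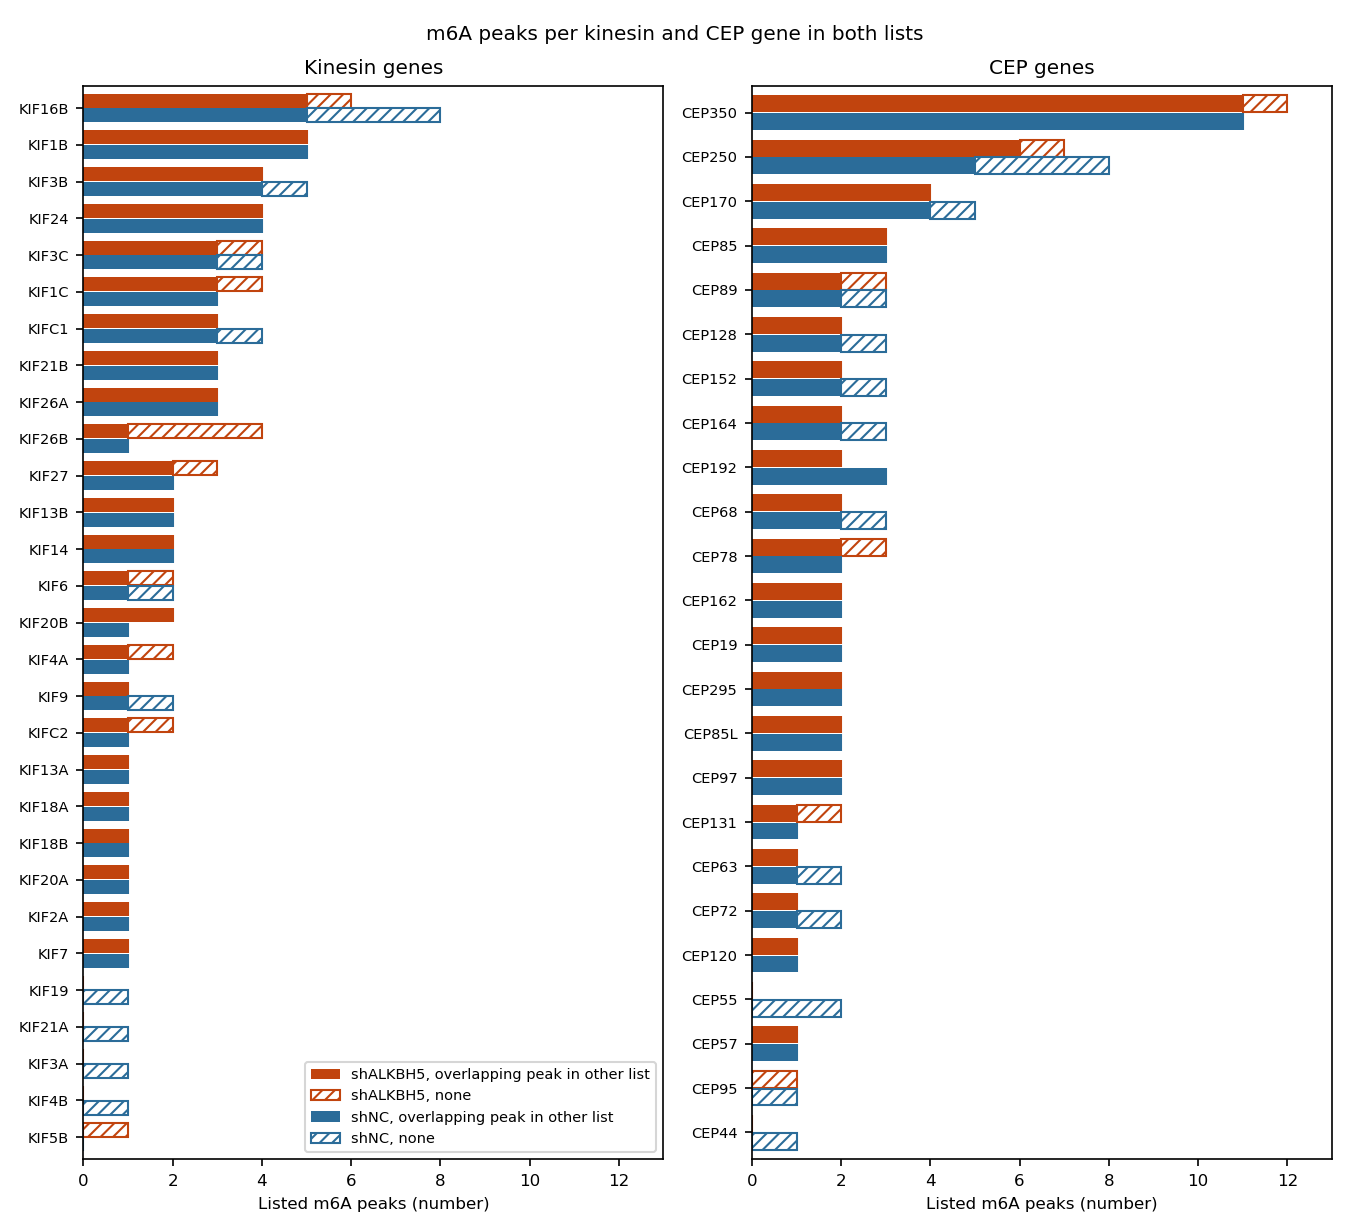
Horizontal bars give the number of listed m6A peaks per gene (x axis) for the kinesin genes (left) and CEP genes (right), less 1 CEP gene that is not shown, with shALKBH5 above shNC; filled parts overlap a peak of the other list by at least 1 base and hatched parts do not. CEP350 had the most peaks, 12 with shALKBH5 and 11 with shNC.

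Peak by peak, the counts leaned to the same side. Peaks were paired when their blocks shared 1 base or more across the lists, whatever the strand. All peaks of the genes found in 1 list alone were unpaired, so these counts partly restate the gene counts. With shALKBH5, 17 of 123 peaks were unpaired (13.8%, 8.26 to 21.2%, against 19.8% of all peaks), and with shNC 27 of 132 were (20.5%, 13.9 to 28.3%, against 12.6%). Of CEP peaks, 6 of 60 were unpaired with shALKBH5 (10.0%) and 15 of 69 with shNC (21.7%). Of kinesin peaks, 11 of 63 (17.5%) and 12 of 63 (19.0%) were, so the difference between the lists lay mostly in the CEP peaks. With lists made equally long, 13 of 113 peaks were unpaired with shALKBH5 and 33 of 132 with shNC, against 15.1% and 15.2% of all peaks.

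The unpaired peaks were all weak, as unpaired peaks mostly were over the whole lists. Their log10 p lay between -2.78 and -7.6 with shALKBH5 and between -2.26 and -9.07 with shNC. Of peaks with log10 p under -10, 0 of 72 with shALKBH5 and 0 of 74 with shNC were unpaired, against 3.23% and 1.24% of all such peaks. Unpaired peaks had a median log10 p of -3.80 with shALKBH5 and -4.02 with shNC, and paired ones -20.1 and -19.8. Over all genes these medians were much alike, at -4.32 and -4.21 for unpaired and -23.5 and -21.3 for paired peaks. Within 1000 bp of a peak of their own gene in the other list lay 8 of the 17 with shALKBH5 and 12 of the 27 with shNC, against 29.6% and 40.3% of all unpaired peaks. Within 200 bp there were 2 and 6, against 10.2% and 14.1%.

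**Figure D2:**
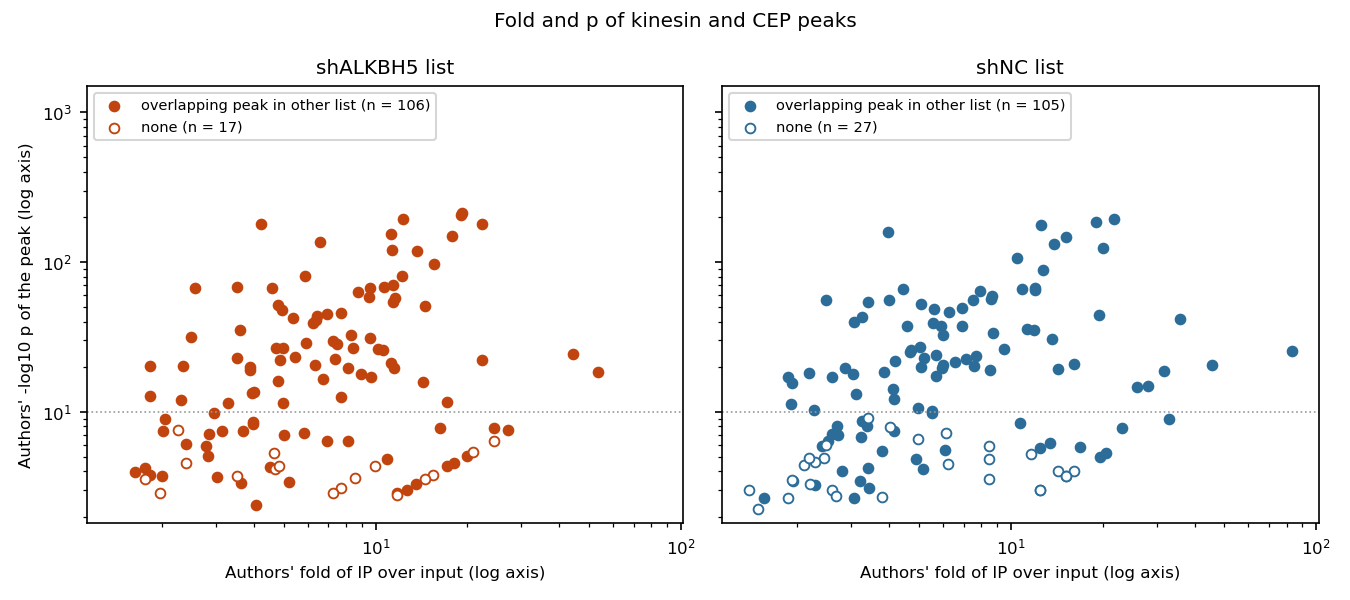
Each point is 1 kinesin or CEP peak with shALKBH5 (left) or shNC (right), with the authors' ratio of IP over input on the x axis and -log10 p on the y axis, both on log scales; filled points overlap a peak of the other list, open points do not, and the dotted line marks a log10 p of -10. All open points lie below the line, and the highest ratio among them is 24.4 with shALKBH5 and 16.1 with shNC.

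Under both hairpins few of these peaks lay at gene starts or ends. A start peak had its 5′ edge before, or less than 500 bp after, the RefSeq start, and an end peak had its 3′ edge less than 1000 bp from the RefSeq end. Start peaks numbered 3 of 123 with shALKBH5 (2.44%, 0.506 to 6.96%, against 14.5% of all placed peaks) and 2 of 132 with shNC (1.52%, 0.184 to 5.37%, against 11.4%). End peaks numbered 11 with shALKBH5 (8.94%, 4.55 to 15.4%, against 22.1%) and 13 with shNC (9.85%, 5.35 to 16.3%, against 23.0%). These genes are long: those with a peak had a median RefSeq span of 69000 bp with shALKBH5 and 64300 bp with shNC, against 28600 and 28900 bp for all genes. The part of gene length in these shares was not tested. Spliced peaks, in several blocks, made up 21 of the peaks with shALKBH5 (17.1%, against 17.9% of all) and 27 with shNC (20.5%, against 17.4%).

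**Figure D3:**
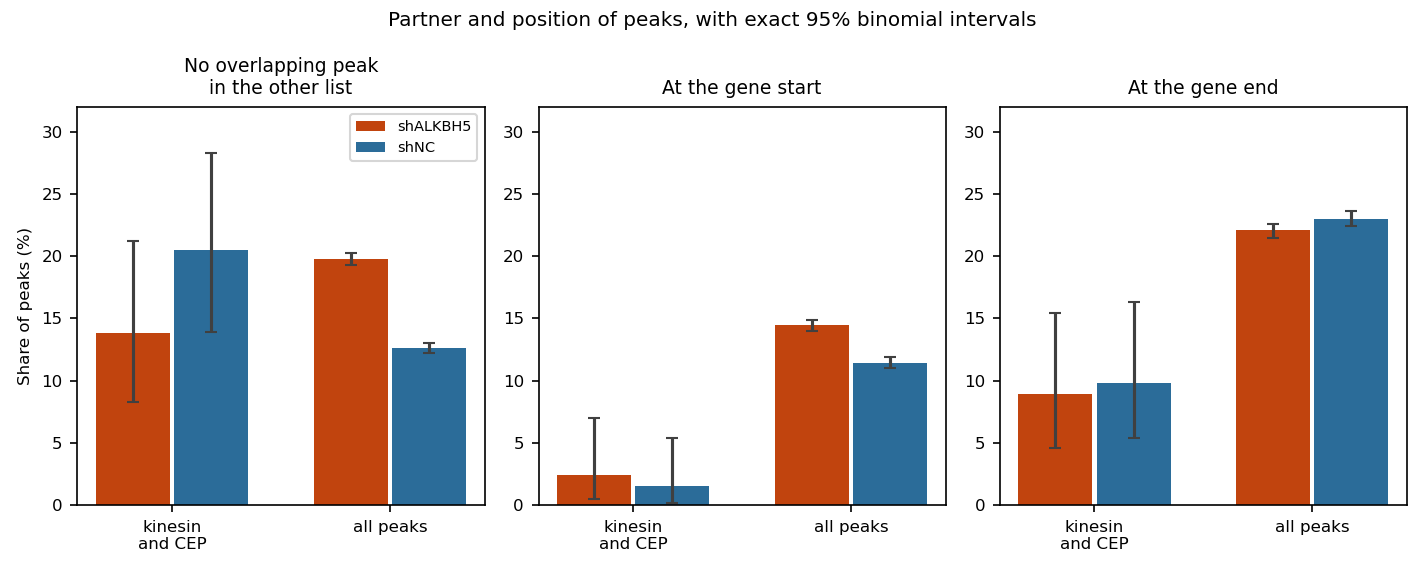
Bars give the share of peaks (y axis, percent) that are unpaired, at the gene start and at the gene end, for kinesin and CEP genes and for all peaks, with shALKBH5 left of shNC in each pair; error bars are exact 95% binomial intervals, which cover counting error only. Start shares are 2.44% and 1.52% for kinesin and CEP peaks, against 14.5% and 11.4% for all peaks.

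KIF5B (ENSG00000170759) had a single peak, with shALKBH5, at its start on chromosome 10 (32056071 to 32056431), enriched 2.26-fold at log10 p -7.6. CEP78, which regulates cilium formation, had an unpaired shALKBH5 start peak on chromosome 9 (78236122 to 78236272), enriched 4.67-fold at log10 p -4.15. CEP63, which recruits the centriole duplication machinery, had an unpaired shNC start peak on chromosome 3 (134485781 to 134485930), enriched 1.92-fold at log10 p -3.49. That CEP63 peak shared bases with an ANAPC13 peak of its own list and lay 161 bp from an shALKBH5 peak of ANAPC13, so its source cannot be told apart without the strand of the reads. CEP350 had a paired start peak, enriched 5.2-fold with shALKBH5 (log10 p -3.4) and 12.5-fold with shNC (log10 p -5.73). Unpaired start peaks were thus 2 of 17 with shALKBH5 and 1 of 27 with shNC, where all unpaired placed peaks gave 27.1% and 12.7%.

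CEP350 (ENSG00000135837, chromosome 1, 179954810 to 180114875), which anchors microtubules at the centrosome, had the most peaks of any of these genes. Its strongest peak was enriched 13.7-fold with shALKBH5 (180111013 to 180111492, log10 p -119) and 20-fold with shNC (180111013 to 180111462, log10 p -124). Downstream of it, the next pairs reached 4.71- and 9.56-fold with shALKBH5, against 3.84- and 6.26-fold with shNC. The cluster before it reached 4.99-, 1.76- and 2.39-fold with shALKBH5, against 4.66-, 2.6- and 5.98-fold with shNC. The pairs nearer the start reached 6.45-, 5.46-, 3.29- and 2.95-fold with shALKBH5, against 5.92-, 7.14-, 3.25- and 7.69-fold with shNC. Every shNC peak of CEP350 was paired, and the 1 unpaired shALKBH5 peak (2.39-fold, log10 p -4.56) lay 359 bp from an shNC peak.

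CEP250 (chromosome 20) encodes C-Nap1, which ties centrioles together, and had 7 peaks with shALKBH5 and 8 with shNC. The upstream group reached 3.94-, 6.33- and 7.24-fold with shALKBH5, against 2.68-, 5.95-, 13.6- and 11.9-fold with shNC, of which the 2.68-fold peak was unpaired. The downstream group reached 24.4-, 11.8-, 27.1- and 19.9-fold with shALKBH5, against 16.1-, 8.47-, 16.1- and 23.2-fold with shNC. With shALKBH5 high ratios went with modest p in the downstream group, where log10 p ran between -2.78 and -7.81. With shNC it ran between -3.54 and -20.8, the strongest at the longer 16.1-fold peak. The 11.8-fold shALKBH5 peak and the 8.47-fold shNC peak were unpaired and missed each other by 29 bp, and the shorter, downstream 16.1-fold shNC peak was unpaired too. CEP68, another linker protein, had the strongest p of any of these peaks with shALKBH5, at 19.2-fold and log10 p -213, against 15.2-fold and log10 p -148 with shNC. An unpaired shNC peak of CEP68 reached 6.24-fold (log10 p -4.48).

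**Figure D4:**
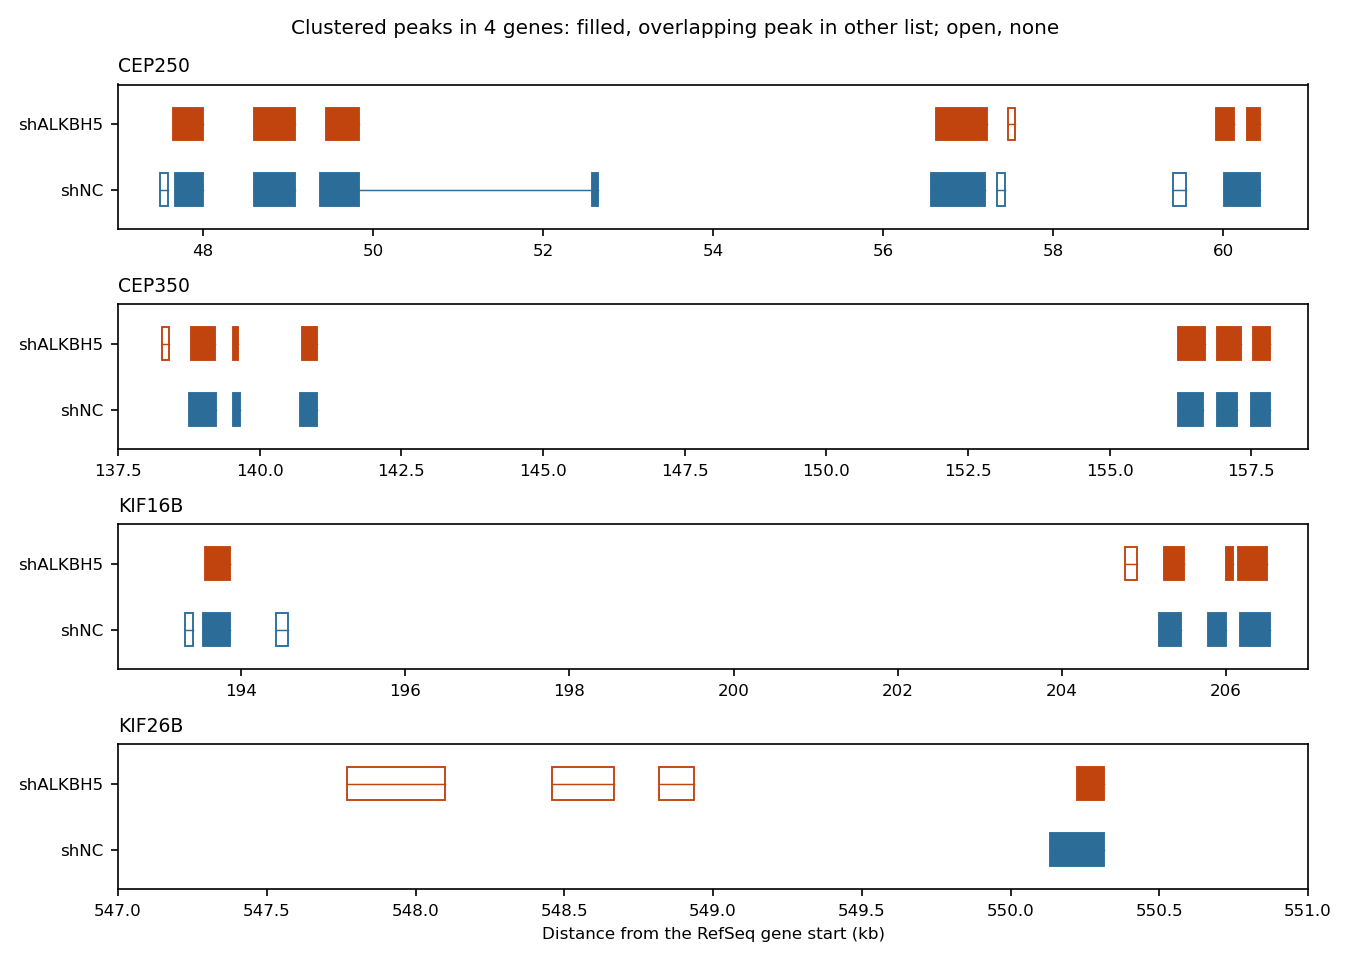
Boxes are peak blocks by distance from the RefSeq gene start (x axis, kb), joined by a line within a spliced peak, with shALKBH5 (upper row) and shNC (lower row) for CEP250, CEP350, KIF16B and KIF26B; filled boxes overlap a peak of the other list and open boxes do not. Each panel shows only a window around clustered peaks, so some peaks of CEP350 and KIF16B are left out. Among those left out are the CEP350 start peaks and the unpaired 3.4-fold shNC peak of KIF16B. In KIF26B the 3 open shALKBH5 boxes lie between 1196 and 2035 bp from the nearest shNC peak.

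CEP170, a marker of the appendages of the mature centriole, had 4 peaks with shALKBH5 and 5 with shNC. The pairs reached 14.3-, 4.52-, 10.6- and 8.14-fold with shALKBH5, against 5.51-, 3.06-, 11.3- and 6.07-fold with shNC, and an unpaired shNC peak reached 8.47-fold (log10 p -4.88). CEP170 has a pseudogene copy that can share its reads, so its peaks are uncertain. CEP89, a distal appendage protein, had a pair at 6.72-fold and log10 p -16.6 with shALKBH5, against 45.5-fold and log10 p -20.5 with shNC. Its other pair had the same borders, at 8.95-fold with shALKBH5 and 7.58-fold with shNC, and each list added an unpaired CEP89 peak, at 3.52-fold with shALKBH5 and 4.96-fold with shNC. CEP164, also a distal appendage protein, had an end peak at 19.1-fold and log10 p -205 with shALKBH5, against 12.6-fold and log10 p -178 with shNC. An unpaired shNC peak of CEP164 reached 1.94-fold (log10 p -3.44). CEP78 had a pair at 10.2-fold and log10 p -26.4 for shALKBH5, against 35.7-fold and log10 p -41.8 for shNC. The other CEP78 pair reached 8.75-fold with shALKBH5 and 8.7-fold with shNC.

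The other appendage, linker and cilium genes gave few peaks. CEP19, a ciliary protein, had pairs at 6.96- and 11.4-fold with shALKBH5, against 6.9- and 7.51-fold with shNC, and CEP162 pairs at 11.5- and 5.82-fold with shALKBH5, against 14.3- and 3.21-fold with shNC. CEP128, a subdistal appendage protein, had pairs at 3.67- and 8.32-fold with shALKBH5, against 5.5- and 5.05-fold with shNC, and an unpaired shNC peak. CEP131 had a pair at 3.02-fold with shALKBH5 and 3.41-fold with shNC and an unpaired shALKBH5 peak at 9.95-fold (log10 p -4.32). Of the 15 genes in this role group, 12 had a peak, all 12 under both hairpins (100%, against 83.0% of all genes).

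Of 11 CEP genes of centriole assembly, 9 had a peak, 8 of them under both hairpins (88.9%, against 83.0% of all genes). CEP152, a scaffold that recruits the duplication kinase PLK4, reached log10 p -195 in each list, at 12.3-fold with shALKBH5 and 21.7-fold with shNC, and had a further strong pair at 11.2-fold with shALKBH5 and 13.8-fold with shNC. An unpaired shNC peak of CEP152 reached 2.1-fold (log10 p -4.42). CEP192, which organizes pericentriolar material, had 2 peaks with shALKBH5 (9.53- and 5.93-fold) and 3 with shNC (12-, 5.21- and 4.18-fold). The wider CEP192 peak with shALKBH5, of 779 bases, overlapped a pair of shNC peaks of 270 and 300 bases. CEP97, a brake on cilium formation, had pairs at 9.61- and 14.5-fold with shALKBH5, against 6.56- and 19.4-fold with shNC. CEP85 had 3 pairs of low ratio, at 2.34-, 3.52- and 2.49-fold with shALKBH5, against 2.19-, 3.25- and 1.92-fold with shNC. CEP120 and CEP295 each had a pair with equal borders, at 8.47-fold with shALKBH5 and 8.73-fold with shNC for CEP120. The CEP295 pair, where AP001273.1 had a peak too, reached 12.2-fold with shALKBH5 and 12-fold with shNC, and its other pair 3.97-fold with shALKBH5 and 2.52-fold with shNC. CEP57 had a spliced pair at 5.89-fold with shALKBH5 and 4-fold with shNC, and the internal CEP63 pair reached 4.78-fold with shALKBH5 and 4.12-fold with shNC. CEP44 had 1 peak, with shNC, at 3.79-fold and log10 p -2.71.

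Among the remaining CEP genes, CEP85L had the highest ratio of any of these peaks with shNC, 83-fold at log10 p -25.3, paired with 44.3-fold at log10 p -24.4 with shALKBH5. Its second pair reached 17.2-fold with shALKBH5 (log10 p -4.32) and 5.17-fold with shNC (log10 p -4.13). CEP55, which works in the last step of cell division, had shNC peaks at 1.39- and 14.3-fold (log10 p -3 and -4.02) and none with shALKBH5. CEP95 had 1 peak in each list, at 4.64-fold with shALKBH5 and 2.2-fold with shNC, 3863 bp apart. CEP72 had a weak pair at 1.83-fold with shALKBH5 and 2.4-fold with shNC and an unpaired shNC peak at 6.12-fold (log10 p -7.19).

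Of 17 transport kinesins, 12 had a peak, 9 of them under both hairpins (75.0%, against 83.0% of all genes). KIF16B (chromosome 20), a carrier of early endosomes, led all kinesins with 6 peaks for shALKBH5 and 8 for shNC. Its pairs reached 3.98-, 17.2-, 13.6-, 16.3- and 7.49-fold with shALKBH5, against 2.79-, 28.1-, 20.5-, 33- and 6.01-fold with shNC. The 13.6-fold (log10 p -3.29) and 20.5-fold (log10 p -5.29) peaks were weak and touched in a single base. Unpaired were 1 shALKBH5 peak of KIF16B, at 7.69-fold, and 3 shNC peaks, at 3.4-, 2.45- and 1.87-fold. The 3.4-fold peak, with log10 p -9.07 the strongest unpaired peak of all, lay 178 bp from an shALKBH5 peak.

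KIF1B, a carrier of mitochondria and synaptic vesicle precursors, had 5 peaks in each list, all paired. Its largest peak, by bases within blocks the largest of any of these genes, covered 1680 bases with shALKBH5 (22.3-fold, log10 p -179) and 1740 bases with shNC (19-fold, log10 p -186). The other KIF1B pairs reached 2.84-, 4.95-, 6.24- and 3.88-fold with shALKBH5, against 4.13-, 4.56-, 4.71- and 5.7-fold with shNC. KIF3B, a motor subunit of kinesin-2, which carries cargo inside cilia, had 4 pairs, at 11.3-, 11.6-, 2.82- and 6.38-fold with shALKBH5, against 10.9-, 8.61-, 4.16- and 6.93-fold with shNC. The first KIF3B pair had equal borders (32309820 to 32310179), at log10 p -120 with shALKBH5 and -66.1 with shNC. One more shNC peak of KIF3B (4.01-fold, log10 p -7.88) lay 148 bp from an shALKBH5 peak.

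KIF3A, the partner subunit of KIF3B, had 1 weak peak, with shNC, at 15.2-fold and log10 p -3.75. KIF3C, a further kinesin-2 subunit, had 3 pairs, at 6.94-, 9.65- and 3.62-fold with shALKBH5, against 16.9-, 8.56- and 4.91-fold with shNC. Each list added an unpaired KIF3C peak, at 20.8-fold with shALKBH5 (log10 p -5.36) and 11.6-fold with shNC (log10 p -5.24), 239 bp apart. KIF1C, a fast cargo motor, had 3 pairs, at 7.72-, 1.83- and 2.02-fold with shALKBH5, against 5.58-, 1.9- and 3.05-fold with shNC, and an unpaired shALKBH5 peak at 4.83-fold. KIF21B had 3 pairs between 1.63- and 5.03-fold with shALKBH5 and between 1.56- and 3.79-fold with shNC, while its relative KIF21A had 1 shNC peak at 2.29-fold. KIF13A had a single weak pair, at 12.7-fold with shALKBH5 (log10 p -3.03) and 15.2-fold with shNC (log10 p -3.75). That fold and p stood at 165 peaks of the shALKBH5 list and 115 of the shNC list. KIF13B had pairs at 2- and 4.98-fold with shALKBH5, against 2.29- and 3.23-fold with shNC. KIFC2 had an end pair at 4.81-fold with shALKBH5 and 5.09-fold with shNC that shared bases with FOXH1 peaks, and an unpaired shALKBH5 peak at 1.76-fold. Across all these genes, 5 peaks with shALKBH5 and 5 with shNC shared bases with another gene's peak (4.07% and 3.79%, against 15.0% of all peaks in each list).

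Mitotic kinesins build the spindle, move chromosomes and drive cytokinesis. A peak was listed for 9 of 15, 8 of them under both hairpins (88.9%, against 83.0% of all genes). Their 13 peaks in each list were few, with strong p. The median log10 p was -66.7 for shALKBH5 and -49.0 for shNC, against -15.3 and -15.8 over all peaks. The median fold was below that of all peaks, at 4.59 for shALKBH5 and 3.96 for shNC, against 6.64 and 6.54. KIFC1, a minus-end motor that gathers extra centrosomes into poles, was strongest at 33405252 to 33405611 on chromosome 6 with shALKBH5 (4.23-fold, log10 p -180), against 3.96-fold and log10 p -160 with shNC. An unpaired shNC end peak of KIFC1 reached 8.47-fold (log10 p -5.95). KIF14, which acts in cytokinesis, had a peak whose 5′ edge lay 2038 bp past the gene start with shALKBH5 (17.8-fold, log10 p -150) and 2368 bp past it with shNC (10.5-fold, log10 p -106). KIF4A, a chromosome-bound motor, had an end peak at 6.56-fold and log10 p -136 with shALKBH5, against 4.44-fold and log10 p -66.6 with shNC. An unpaired shALKBH5 peak of KIF4A reached 1.97-fold (log10 p -2.87). KIF20B, a midbody motor, was covered over the same stretch by a pair of 510-base peaks with shALKBH5 (10.7- and 15.5-fold) and by 1 peak of 1108 bases with shNC (12.7-fold).

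KIF20A, a cytokinesis motor, had a pair 188 bp before the gene end, at 4.59-fold with shALKBH5 and 3.41-fold with shNC. KIF18A, which limits chromosome oscillation, had a spliced pair with equal borders at 4.85-fold with shALKBH5 and 9.47-fold with shNC, and its relative KIF18B a pair at 3.51-fold with shALKBH5 and 2.59-fold with shNC. KIF2A, which takes microtubules apart, had a pair at 3.6-fold with shALKBH5 and 3.06-fold with shNC. KIF4B, an intronless copy of KIF4A, had 1 shNC peak at 1.49-fold and log10 p -2.26, the weakest p of all these peaks, and its reads may come from KIF4A. KIF2B, KIF2C, KIF11, KIF15, KIF22 and KIF23 had no listed peak under either hairpin. Nor had the kinesins KIF1A, KIF5A, KIF5C, KIF12, KIF17, KIF25 and KIFC3 or, under these symbols, CEP15, CEP20, CEP41, CEP43, CEP70, CEP76, CEP83, CEP112, CEP126, CEP135 and CEP290.

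Of 10 ciliary or non-canonical kinesins, 8 had a peak, 7 of them under both hairpins (87.5%, against 83.0% of all genes). KIF26A, a kinesin-like protein without motor activity, had the highest ratio of these genes with shALKBH5, 53.4-fold at log10 p -18.5, paired with 25.9-fold at log10 p -14.6 with shNC. A wide internal pair of KIF26A, of 1346 bases with shALKBH5 and 1376 bases with shNC, reached 11.4-fold with shALKBH5 and 7.92-fold with shNC, and another pair 3.99-fold with shALKBH5 and 2.7-fold with shNC. Its relative KIF26B had 4 peaks with shALKBH5 and 1 with shNC. The 3 unpaired shALKBH5 peaks of KIF26B reached 15.4-, 24.4- and 14.5-fold, at log10 p -3.8, -6.41 and -3.54. The same fold and p stood at 125, 37 and 162 peaks of the shALKBH5 list in turn. The paired KIF26B peaks reached 11.8-fold with shALKBH5 (log10 p -2.88) and 19.6-fold with shNC (log10 p -5.03). KIF24, which takes apart centriolar microtubules, had 4 pairs, at 11.2-, 8.14-, 7.69- and 22.4-fold with shALKBH5, against 4.95-, 5.71-, 10.7- and 31.7-fold with shNC.

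KIF27 had pairs at 4.07- and 18.1-fold with shALKBH5, against 13.4- and 12.5-fold with shNC, the second of which overlapped peaks of AL354733.1. Their log10 p were -2.38 and -4.57 with shALKBH5 and -6.23 and -2.99 with shNC. An unpaired shALKBH5 peak of KIF27 reached 7.24-fold (log10 p -2.88). KIF6 had a spliced pair at 7.35-fold with shALKBH5 and 5.08-fold with shNC, and an unpaired peak in each list. KIF7, a Hedgehog pathway regulator at the cilium tip, had a pair with equal borders at 3.15-fold with shALKBH5 and 2.71-fold with shNC that overlapped TICRR peaks. KIF9, a ciliary motor, had a pair at 10.9-fold with shALKBH5 and 3.42-fold with shNC that overlapped an shALKBH5 peak of KIF9-AS1. The log10 p of this pair was -4.81 with shALKBH5 and -3.09 with shNC. An unpaired shNC peak of KIF9 reached 2.18-fold (log10 p -4.9). KIF19, which shortens cilia, had 1 peak, with shNC, at 2.49-fold and log10 p -5.98.

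Lists of other genes from the same structures were set beside these counts. Of 37 further centrosome genes, 28 had a peak, and 24 had one under both hairpins, with NINL and ODF2 found for shALKBH5 alone and SPICE1 and TUBGCP3 for shNC alone. Ranked by the higher value of the lists, the top genes there, all by their shALKBH5 peaks, were CNTROB (38.9-fold with shALKBH5 and 9.81-fold with shNC), PCNT (24.8-fold with shALKBH5 and 18.1-fold with shNC) and CEP170B (24.4-fold with shALKBH5 and 14.1-fold with shNC), while the highest shNC ratio of the list was 20.5-fold, in another gene. A further list held 38 symbols of motor and microtubule-end genes, with KIFBP and PAFAH1B1 each entered under a second symbol too. Of its genes, 24 had a peak and 21 had one under both hairpins, with DYNC1LI1 and KLC4 found for shALKBH5 alone and KLC3 for shNC alone. Of 35 spindle and kinetochore genes, 25 had a peak and 22 had one under both hairpins, with 0 for shALKBH5 alone and AURKB, SPC25 and TOP2A for shNC alone. In these lists 85.7%, 87.5% and 88.0% of the genes with a peak, in turn, had one under both hairpins. Over all genes the share was 83.0%, with 11.5% for shALKBH5 alone and 5.50% for shNC alone.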

How the data were processed

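Tools named in the submitters' processing notes, without roles, are fastp 0.19.11, HOMER 4.9.1 and BWA 0.7.12, with hg38 as build; which program called peaks is not stated there. For each condition the authors deposited 1 list, as far as the labels say from 1 IP and 1 input library, with peak coordinates, blocks, gene, a fold (the ratio of IP over input), a p-value and its log10, read here as a score because it passes -100. Scaling between IP and input is not given, nor whether reads keep strand. Depth is unknown, and 95% intervals (exact binomial, Clopper-Pearson) run over peaks or genes, which are not replicates.

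Partners were found by shared block bases, strand ignored, in Python 3.11.15 with intervaltree 3.1.0, pandas 2.3.3, numpy 2.4.6, SciPy 1.17.1 and matplotlib 3.10.9, tested on simulated peaks. Positions came from RefSeq (GRCh38.p14) spans, which placed 88.2% of shALKBH5 and 88.4% of shNC peaks and all of the kinesin and CEP peaks; promoter sequences from RefSeq matched 45 of the 54 genes. The values of 1 CEP gene are not reported here, though it is counted. All 54 were eligible to be named by the rule for named genes, with full values for the 4 kinesin and 4 CEP genes with the most peaks (ties added), start peaks of 1 list, and the 5 highest folds per list. The genes and lists were chosen with earlier results of these data known. The role groups come from general knowledge. Alternatives were a fold of at least 2 times the lowest of the list, lists of equal length by p, reciprocal overlap of 50%, a gap of up to 200 bp, the same strand, peaks within 100 bp merged, narrower start and end windows, and genes by RefSeq span.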

Additional observations from a re-analysis of the deposited data

How the results depend on the processing

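Of the alternative values, 51 stayed within 1.5 times the reported one and 10 did not. With a fold of at least 2 times the lowest of the list, CEP95 joined KIF5B, so 2 genes stood in the shALKBH5 list alone, and the shNC start peaks without a partner became 0. With reciprocal overlap of 50%, 27 shALKBH5 peaks had no partner in place of 17, against 36 in place of 27 in the shNC list. The share over all peaks under this overlap is not given, so these counts have nothing beside them. With lists of equal length by p, the CEP350 start peak of the shALKBH5 list was lost: 0 shared start peaks were left in each list and shNC start peaks without a partner became 2. With a gap of up to 200 bp, the CEP63 start peak gained a partner, so 0 shNC start peaks lacked one and 2 had one. Gene-end peaks within 500 bp numbered 5 for shALKBH5 and 7 for shNC. The shNC list kept more peaks without a partner than the shALKBH5 list under all 6 alternatives tried for that count. These alternatives reuse the same peaks, so they give no independent support. Equal length removes shALKBH5 peaks only, so it can only lower that count for shALKBH5 and raise it for shNC. Shares over all peaks are given only for equal length (15.1% with shALKBH5 and 15.2% with shNC) and the fold limit (21.5% and 13.8%). No paired analysis was possible because each condition has 1 peak list. Depth is unknown, so the weak peaks that carry these counts have no measured precision.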

Other observations

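Genes with names close to the rule also had peaks. KIF9-AS1, a noncoding RNA that overlaps KIF9 on the opposite strand, had 7 peaks in the shALKBH5 list and 4 in the shNC list, more than KIF9 itself, which had 1 and 2. The strongest KIF9-AS1 peak reached 24-fold at log10 p -14.9 for shALKBH5 and 40.1-fold at log10 p -21.9 for shNC. The KIF9 peak of the shALKBH5 list at 47239778 to 47240843 on chromosome 3 shared bases with a KIF9-AS1 peak at 47239786 to 47239995, so these cannot be told apart without the strand of the reads. CEP170B had a wide peak at 24.4-fold and log10 p -163 for shALKBH5, against 14.1-fold and log10 p -114 for shNC. CEP43, a centriole and cilium protein gene, was listed under its older symbol FGFR1OP, with 2 shALKBH5 peaks and 1 shNC peak, and is not counted among the 54 genes.

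Many peaks shared their exact pair of fold and p with other peaks of the list. The KIF6 and KIF27 peaks of the shNC list at 12.5-fold and log10 p -2.99 shared that pair with others, 127 peaks in all, and the KIF3A peak of the shNC list, with 15.2 and -3.75, was 1 of 115. Of the kinesin and CEP peaks without a partner, 14 of 17 in the shALKBH5 list (82.4%, 56.6 to 96.2%) and 10 of 27 in the shNC list (37.0%, 19.4 to 57.6%) had such a repeated pair, against 59.7% and 59.3% over all peaks without a partner. Of those with a partner, 23 of 106 with shALKBH5 (21.7%) and 19 of 105 with shNC (18.1%) had one, close to the 20.9% and 22.4% over all peaks with a partner. The cause was not tested.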
